A study of Mus musculus with 21 samples.

Results

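Interferon-induced genes were examined in whole-brain RNA of SAMP8 mice, a senescence-accelerated strain used as a model of sporadic Alzheimer's disease. The list was chosen by name, with earlier results of these data known. It held 54 gene symbols: interferon-induced GTPases, RNA sensors, antiviral effectors and factors of interferon signaling. Of these, 53 symbols were found among the 16318 genes of the count table, on 54 rows, because Gbp6 stands for 2 gene IDs. Zbp1 was not analysed here. Samd9l, with 0 counts in at least 1 mouse and a mean of 0.0948 CPM (counts relative to a library total scaled to a common size) in PBS mice, did not pass the low-count filter, which left 53 member rows among 16303 genes tested. At least 10 counts in every mouse were reached by 46 rows.

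The study compared HsTX1[R14A], a peptide that blocks Kv1.3 potassium channels, with its vehicle, phosphate-buffered saline (PBS), to ask how the peptide affects the brain transcriptome. SAMP8 mice were injected subcutaneously on alternate days from 4 months of age over 8 weeks, with the peptide at 1 mg/kg or with PBS. The libraries used here came from 3 female and 6 male mice on the peptide and from 6 female and 6 male mice on PBS. All mice had been through behavioral tests, were 6 months old at the end, and were perfused before the brain was taken. There was 1 library per mouse and no mouse of another strain entered the comparison, so no level for a brain without the SAMP8 background is given.

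Interferons are secreted proteins, and cells release those of type I on sensing foreign nucleic acid. Type I interferons bind a receptor made of IFNAR1 and IFNAR2, and the kinases JAK1 and TYK2 on that receptor activate STAT2, which joins IRF9 in a complex that binds the interferon-stimulated response element (ISRE) in promoters. Type II interferon acts through gamma-activated sites (GAS). In brain, microglia, vessels and astrocytes are known for such responses, and a low tonic level of many of these genes is found without infection.

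Of the members that passed the test, most were lower in HsTX1[R14A]-treated brains than in PBS-treated brains. At an FDR of at most 0.05 (edgeR's quasi-likelihood test with sex in the model, Benjamini-Hochberg adjustment over all 16303 genes), 22 of the 53 member rows fell (41.5%) and 3 rose (5.66%). Over all genes, 16.1% fell and 15.5% rose. The log2 fold change was below 0 in 45 members, and its median was -0.30 over the members and -0.01 over all genes tested. At an unadjusted p under 0.05, 30 members were lower, against 23.5% of all genes. The changes were small, and 0 members reached a 2-fold difference. The CPM ranges of the 2 treatments overlapped in every member, where 0.0184% of all genes had ranges that did not overlap.

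The calls changed when a property of the libraries was put in the model. Counts in HsTX1[R14A] libraries rose more steeply with transcript length than in PBS libraries. The slope of log2 CPM, centered per gene, on log2 transcript length ran from -0.384 to 0.147 (median -0.023) in PBS mice and from -0.142 to 0.234 (median 0.150) in HsTX1[R14A] mice. With this slope in the model, 0 members and 0 of all genes had an FDR of at most 0.05 in edgeR. In that fit 49 of the 53 members were still lower, with a median log2 fold change of -0.33, and 26 of the 53 (49.1%) were lower with an unadjusted p under 0.05, against 6.97% of all genes. The slope is computed from the same counts and differs between the treatments, so this fit cannot tell slope and treatment apart. Beyond this fit and the removal of length trends given below, the part of the slope in single calls was not tested.

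**Figure D1:**
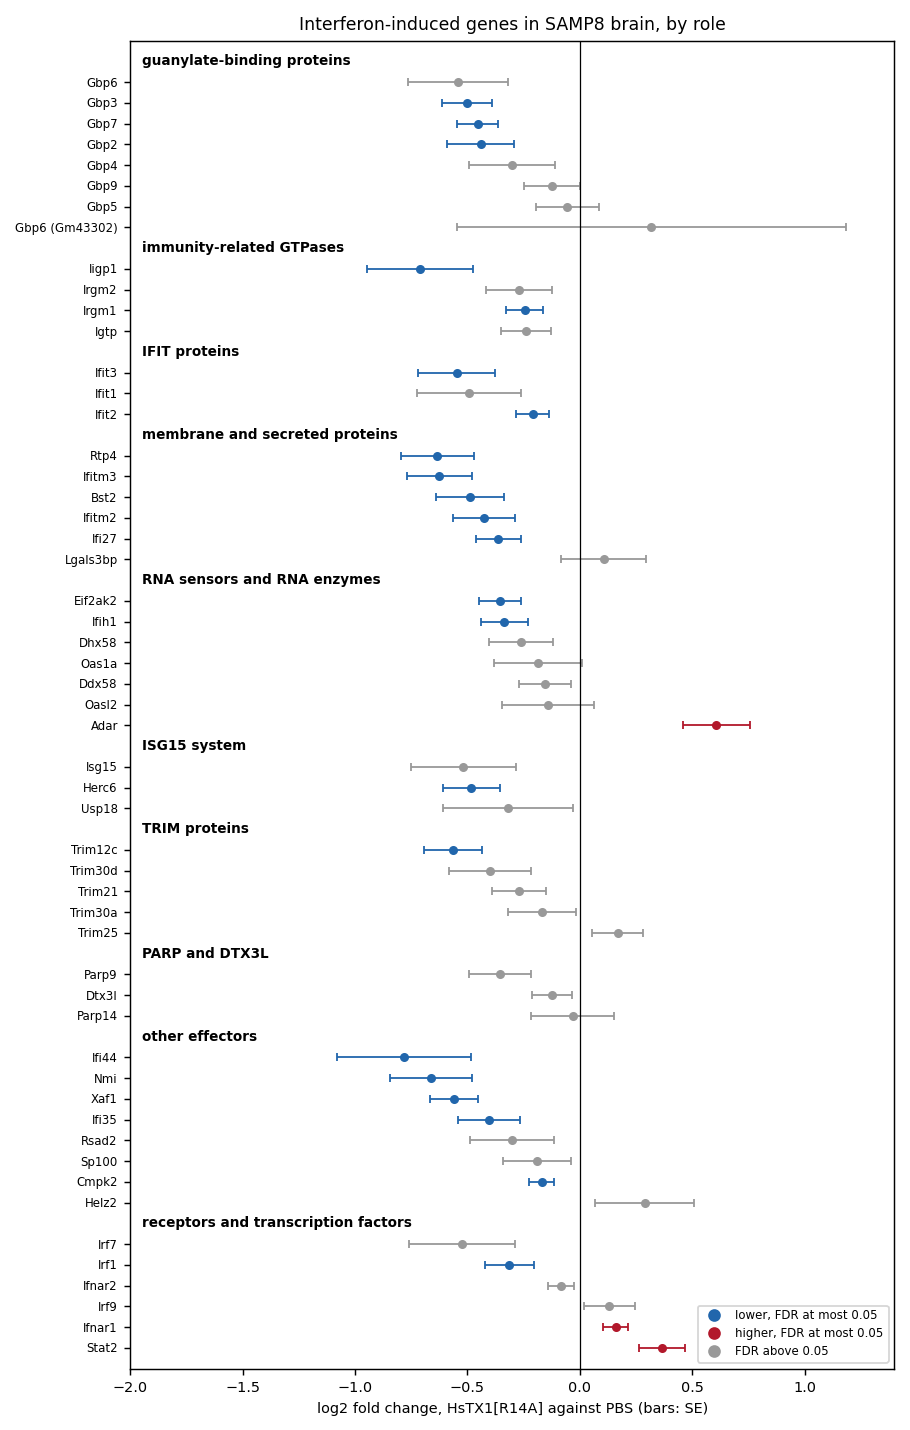
Log2 fold change of each member in HsTX1[R14A] against PBS mice (points, with standard errors as bars), grouped by role and colored by call. Of the 53 rows, 45 lie left of 0, and the 3 that rose are Adar, Stat2 and Ifnar1.

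Receptors and transcription factors held calls in both directions. Of the 6 members, Stat2 and Ifnar1 rose (33.3%, against 15.5% of all genes) and Irf1 fell (16.7%, against 16.1%). The other 3 did not pass the test. Ifnar1, a subunit of the type I interferon receptor (chromosome 16 of GRCm38, 91485238 to 91507441), ran from 30.2 to 39.5 CPM in PBS mice (median 35.0) and from 36.2 to 42.8 CPM in HsTX1[R14A] mice (median 39.1). All 9 treated mice lay above the PBS median, and the log2 fold change was 0.16 (SE 0.06, edgeR FDR = 0.0353). Ifnar2, the other subunit, was at 15.8 ± 1.37 CPM (SD, n = 12) under PBS and 14.9 ± 1.00 CPM (SD, n = 9) under the peptide, with a log2 fold change of -0.08 (edgeR FDR = 0.269).

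Stat2, whose protein works with IRF9 to switch on target genes, ran from 11.6 to 19.4 CPM in PBS mice (median 16.5) and from 15.1 to 23.9 CPM in HsTX1[R14A] mice (median 21.1). The treated mice lay above the PBS median in 7 of 9 cases, and the log2 fold change was 0.36 (SE 0.10, edgeR FDR = 0.0198). With the length slope in the model, the estimates were 0.09 for Stat2 (unadjusted p = 0.262) and 0.05 for Ifnar1 (unadjusted p = 0.269). Irf9, which shares its strand and part of its locus with Rnf31, had a log2 fold change of 0.13 (edgeR FDR = 0.364).

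Irf1, a transcription factor that interferon induces, ran from 3.03 to 4.76 CPM in PBS mice (median 3.62) and from 2.13 to 3.98 CPM in HsTX1[R14A] mice (median 2.98). Of the treated mice, 6 lay below the lowest PBS mouse and 1 lay above the PBS median, and the log2 fold change was -0.31 (SE 0.11, edgeR FDR = 0.0364). Irf7, the factor that drives interferon alpha genes, had a larger estimate of -0.52 with a wider error (SE 0.23, edgeR FDR = 0.0860). The promoter of Irf1 shows the GAS letters, searched as TTCNNNGAA, which read the same on both strands, and is printed here as the example of a member with the GAS motif alone. Sequences are from RefSeq (GRCm38.p6), 5′ to 3′ on the strand of the gene, ending at or just before its start, with motif letters in capitals. Irf1 is at chr11:53769894-53770013, plus strand.
Irf1: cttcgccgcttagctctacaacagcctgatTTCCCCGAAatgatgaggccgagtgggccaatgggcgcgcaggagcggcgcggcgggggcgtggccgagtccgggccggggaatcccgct

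Promoter windows, from 250 bases before to 50 bases after the start, were matched by symbol for 43 members. None was matched for Gbp4, Gbp6, Gbp9, Iigp1, Ifi27, Rtp4, Dhx58, Usp18, Parp9 and Parp14. The core of the ISRE was searched as GAAANNGAAA on both strands (TTTCNNTTTC on the other), with overlapping hits counted. It was found in 23 of the 43 members (53.5%) and in 3.99% of all 27025 genes with a window (3.44% of all windows). The GAS letters were found in 14 members (32.6%) and in 9.55% of all genes. Members that fell held the ISRE core in 11 of 19 cases (57.9%), and members that did not pass the test in 11 of 20 (55.0%). Of the 3 that rose, Stat2 holds an ISRE core and Adar and Ifnar1 hold the GAS letters. A match of letters is a description and not a binding site.

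RNA sensors and RNA enzymes also held calls in both directions. Of the 7 members, Ifih1 and Eif2ak2 fell (28.6%, against 16.1% of all genes) and Adar rose (14.3%, against 15.5%). The other 4 did not pass the test. Ifih1, which encodes MDA5, a sensor of long double-stranded RNA (chromosome 2, 62595798 to 62646255), ran from 3.48 to 7.31 CPM in PBS mice (median 5.89) and from 3.66 to 6.40 CPM in HsTX1[R14A] mice (median 4.68). The treated range lay within the PBS range, with 8 of 9 mice below the PBS median. Its log2 fold change was -0.34 (SE 0.10, edgeR FDR = 0.0244).

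Eif2ak2 encodes PKR, a kinase that halts translation on binding double-stranded RNA. It ran from 8.41 to 12.9 CPM in PBS mice (median 11.3) and from 6.58 to 11.3 CPM in HsTX1[R14A] mice (median 8.71), and all 9 treated mice lay below the PBS median. The log2 fold change was -0.35 (SE 0.09, edgeR FDR = 0.0180). The sensor genes Ddx58 (RIG-I) and Dhx58 (LGP2) had log2 fold changes of -0.16 (SE 0.12) and -0.26 (SE 0.14), and Oas1a and Oasl2, of the oligoadenylate synthetase family, -0.19 (SE 0.19) and -0.14 (SE 0.21). None of these 4 passed the test. With the length slope in the model, the estimates were -0.37 for Ddx58, -0.29 for Dhx58, -0.09 for Oas1a and -0.48 for Oasl2. Their unadjusted p in edgeR were 0.00468, 0.124, 0.725 and 0.0494.

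Adar encodes the enzyme that edits adenosine to inosine in double-stranded RNA and thereby keeps a cell's own RNA from the sensors. It was the most abundant member before division by length and had the largest rise (chromosome 3, 89715022 to 89753446). Adar ran from 52.8 to 135 CPM in PBS mice (median 94.1) and from 84.3 to 174 CPM in HsTX1[R14A] mice (median 149), with 8 of 9 treated mice above the PBS median. The log2 fold change was 0.61 (SE 0.15, edgeR FDR = 0.0163), an increase of 52.4%. Its transcript is long (5909 bases), and with the length slope in the model the estimate was 0.14 (SE 0.05, unadjusted p = 0.0150, edgeR FDR = 0.344). Adar overlaps Chrnb2 on the other strand, and whether the counting used strand is not given in the sources used here.

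Guanylate-binding proteins are large GTPases that gather on vacuoles of intracellular pathogens and break them open. Of the 8 rows, Gbp2, Gbp3 and Gbp7 fell, 0 rose, and the median log2 fold change was -0.37. Gbp7 (chromosome 3, 142530342 to 142550149) ran from 6.42 to 11.1 CPM in PBS mice (median 8.999) and from 5.33 to 8.80 CPM in HsTX1[R14A] mice (median 6.47). All 9 treated mice were below the PBS median and 4 were below the lowest PBS mouse. The log2 fold change was -0.45 (SE 0.09, edgeR FDR = 0.0151), and -0.33 (SE 0.10, unadjusted p = 0.00298) with the length slope in the model. Gbp7 is a long transcript (5614 bases), a length at which the median of all genes was above 0.

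Gbp3 ran from 3.03 to 6.13 CPM in PBS mice (median 4.90) and from 2.79 to 3.996 CPM in HsTX1[R14A] mice (median 3.45), again with all 9 treated mice below the PBS median. Its log2 fold change was -0.50 (SE 0.11, edgeR FDR = 0.0151). Gbp2 ran from 3.31 to 8.32 CPM (median 5.02) and from 2.90 to 4.39 CPM (median 3.63), and its log2 fold change was -0.44 (SE 0.15, edgeR FDR = 0.0329). Among PBS males the highest Gbp2 value, in mouse 83, stood apart from the rest. Leaving out any 1 of 6 mice, mouse 83 among them, lost the Gbp2 call. Gbp7 and Gbp3 are neighbors on chromosome 3, and their promoters are printed because these 2 had the smallest p-values of the family. Gbp7 (chr3:142530216-142530335, plus strand) shows 2 GAS matches and 1 ISRE core, and Gbp3 (chr3:142559924-142560025, plus strand) 2 overlapping ISRE cores.
Gbp7: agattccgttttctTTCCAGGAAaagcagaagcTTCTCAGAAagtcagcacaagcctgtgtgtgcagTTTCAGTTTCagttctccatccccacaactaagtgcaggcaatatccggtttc
Gbp3: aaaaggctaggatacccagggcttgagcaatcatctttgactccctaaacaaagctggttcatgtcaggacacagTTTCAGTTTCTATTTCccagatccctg

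The other guanylate-binding proteins did not pass the test. Gbp6 had a log2 fold change of -0.54 (SE 0.22, edgeR FDR = 0.0636), Gbp4 of -0.30 (SE 0.19), Gbp9 of -0.12 (SE 0.13) and Gbp5 of -0.06 (SE 0.14). The second row under the name Gbp6 is called Gm43302 in GENCODE M21, had 0 counts in at least 1 mouse, and gave 0.32 with an SE of 0.87. It overlaps Gbp10 and Gbp6 on the same strand, Gbp4, Gbp8 and Gbp9 overlap each other, and the members of this family are similar in sequence, so the split of reads among them is uncertain.

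**Figure D2:**
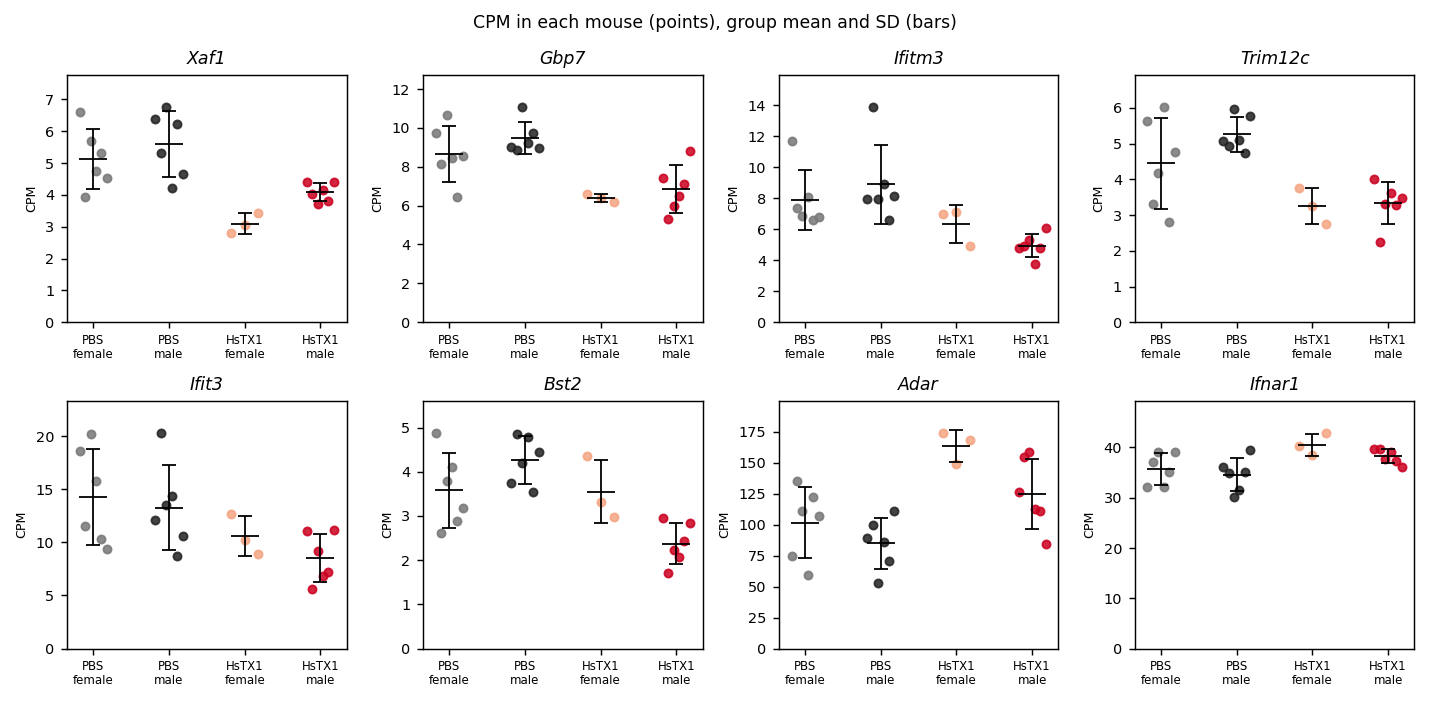
CPM in each mouse (points) with the group mean and SD (bars) for Xaf1, Gbp7, Ifitm3, Trim12c, Ifit3, Bst2, Adar and Ifnar1, by treatment and sex. Each axis starts at 0; Bst2 in treated females lies among the PBS values and in treated males below most of them.

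Immunity-related GTPases act with the guanylate-binding proteins on pathogen vacuoles. Of the 4 members, Irgm1 and Iigp1 fell and the other 2 did not pass the test. Irgm1, a regulator of the family, ran from 6.97 to 10.6 CPM in PBS mice (median 8.67) and from 6.09 to 8.98 CPM in HsTX1[R14A] mice (median 7.75), a log2 fold change of -0.25 (SE 0.08, edgeR FDR = 0.0306). Iigp1, an effector GTPase of low abundance, ran from 0.417 to 2.34 CPM (median 0.995) and from 0.356 to 1.01 CPM (median 0.621). Its log2 fold change was -0.71 (SE 0.24, edgeR FDR = 0.0307), with 8 of 9 treated mice below the PBS median. Igtp and Irgm2, which share strand and part of a locus on chromosome 11, had log2 fold changes of -0.24 (SE 0.11) and -0.27 (SE 0.15). With the length slope in the model, the estimates were -0.16 for Irgm1, -0.53 for Iigp1, -0.30 for Igtp and -0.40 for Irgm2. Their unadjusted p in edgeR were 0.0872, 0.0811, 0.0417 and 0.0390.

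IFIT proteins bind foreign RNA and block its translation. Ifit2 and Ifit3 fell and Ifit1 did not pass the test, and the 3 lie side by side on chromosome 19. Ifit3 (34583531 to 34588731) ran from 8.70 to 20.3 CPM in PBS mice (median 12.8) and from 5.63 to 12.7 CPM in HsTX1[R14A] mice (median 9.23), and all 9 treated mice lay below the PBS median. The log2 fold change was -0.55 (SE 0.17, edgeR FDR = 0.0255). Ifit2 ran from 10.1 to 13.8 CPM (median 12.1) and from 8.71 to 12.5 CPM (median 10.5), a smaller change of -0.21 (SE 0.07, edgeR FDR = 0.0380). With the length slope in the model, the estimates were -0.47 for Ifit3 and -0.08 for Ifit2 (edgeR unadjusted p = 0.0305 and 0.280). Ifit1 was at 4.71 ± 2.18 CPM (SD, n = 12) and 3.34 ± 1.04 CPM (SD, n = 9), a log2 fold change of -0.49 with a wide error (SE 0.23, edgeR FDR = 0.0990). Ifit3 has a near copy, Ifit3b, with which it can share reads. The promoter of Ifit3 (chr19:34583349-34583528, plus strand) is shown for its 2 separate ISRE cores, which begin at bases -156 and -122 from the start.
Ifit3: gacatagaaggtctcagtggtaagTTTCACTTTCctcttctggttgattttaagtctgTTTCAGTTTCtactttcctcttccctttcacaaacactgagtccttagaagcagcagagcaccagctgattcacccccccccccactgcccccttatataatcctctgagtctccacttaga

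Membrane and secreted proteins held the largest share of calls among the roles with more than 3 members: 5 of 6 fell and Lgals3bp did not pass the test (log2 fold change 0.11, SE 0.19). Ifitm3 and Ifitm2 encode small membrane proteins that block entry of enveloped viruses. Ifitm3 (chromosome 7, 141009586 to 141010770) ran from 6.59 to 13.9 CPM in PBS mice (median 7.93) and from 3.78 to 7.09 CPM in HsTX1[R14A] mice (median 4.95). Of the treated mice 7 lay below the lowest PBS mouse, the most of any member, and the log2 fold change was -0.62 (SE 0.14, edgeR FDR = 0.0152). Ifitm2 ran from 5.01 to 10.2 CPM (median 7.15) and from 4.06 to 6.68 CPM (median 5.51), with a log2 fold change of -0.43 (SE 0.14, edgeR FDR = 0.0292).

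Rtp4, which encodes a chaperone of membrane receptors, ran from 1.54 to 4.26 CPM in PBS mice (median 2.93) and from 1.44 to 2.17 CPM in HsTX1[R14A] mice (median 1.87). Treated mice varied less among themselves (coefficient of variation 12.4%) than PBS mice (30.3%), and the log2 fold change was -0.63 (SE 0.16, edgeR FDR = 0.0171). Bst2 encodes tetherin, which holds budding virus at the cell surface. It ran from 2.62 to 4.87 CPM (median 3.96) and from 1.72 to 4.35 CPM (median 2.83), with a log2 fold change of -0.49 (SE 0.15, edgeR FDR = 0.0249). Ifi27, a small hydrophobic protein of organelle membranes, ran from 12.5 to 20.7 CPM (median 16.8) and from 8.71 to 15.2 CPM (median 13.2), with a log2 fold change of -0.36 (SE 0.10, edgeR FDR = 0.0191).

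The transcripts of this role are short. Its 6 members had a median length of 884.5 bases, and at such lengths the median of all genes was also below 0. With the length slope in the model, Ifitm3 and Rtp4 had estimates of -0.61 and -0.61 (unadjusted p = 0.00222 and 0.00526, edgeR FDR = 0.268 and 0.294), Bst2 had -0.38 (unadjusted p = 0.0470), and Ifi27 and Ifitm2 had -0.19 and -0.18 (unadjusted p = 0.0767 and 0.232). Rtp4 overlaps Masp1 on the other strand and Gm45338 on its own, and Ifitm2 overlaps Gm45717. The promoters of Bst2 (chr8:71537473-71537622, minus strand), where a GAS match runs into 2 ISRE cores, and of Ifitm2 (chr7:140955988-140956081, minus strand), with 1 ISRE core, show the motifs at different distances from the start.
Bst2: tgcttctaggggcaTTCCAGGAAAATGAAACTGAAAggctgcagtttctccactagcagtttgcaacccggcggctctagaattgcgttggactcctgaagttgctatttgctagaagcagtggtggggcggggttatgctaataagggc
Ifitm2: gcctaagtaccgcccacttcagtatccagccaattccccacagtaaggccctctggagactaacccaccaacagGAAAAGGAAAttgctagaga

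The ISG15 system attaches the ubiquitin-like protein ISG15 to other proteins. Herc6, the main ISG15 ligase of the mouse, fell, and Isg15 and Usp18, the enzyme that removes ISG15, did not pass the test. Herc6 (chromosome 6, 57581000 to 57664632) ran from 10.01 to 23.6 CPM in PBS mice (median 16.05) and from 7.88 to 17.1 CPM in HsTX1[R14A] mice (median 12.2), a log2 fold change of -0.48 (SE 0.13, edgeR FDR = 0.0176). Isg15 ran from 0.734 to 2.22 CPM (median 1.68) and from 0.474 to 1.82 CPM (median 1.14), with 8 of 9 treated mice below the PBS median. Its log2 fold change was -0.52 (SE 0.23, edgeR FDR = 0.0891), and Usp18 had -0.32 (SE 0.29, edgeR FDR = 0.391). The Isg15 promoter (chr4:156200819-156200938, minus strand) is printed for its 3 overlapping ISRE cores, the most of any member window.
Isg15: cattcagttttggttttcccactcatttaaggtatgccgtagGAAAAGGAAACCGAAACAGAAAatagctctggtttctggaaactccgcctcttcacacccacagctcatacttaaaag

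TRIM proteins are ubiquitin ligases, and Trim12c was the 1 of 5 members that fell (20%, against 16.1% of all genes). It ran from 2.80 to 6.03 CPM in PBS mice (median 4.99) and from 2.25 to 4.02 CPM in HsTX1[R14A] mice (median 3.32), with all 9 treated mice below the PBS median and a log2 fold change of -0.57 (SE 0.13, edgeR FDR = 0.0151). Trim21, the cytosolic antibody receptor, ran from 2.08 to 3.57 CPM (median 2.44) and from 1.66 to 2.78 CPM (median 2.07), and although 6 treated mice were below the lowest PBS mouse, the test was not passed (log2 fold change -0.27, SE 0.12, edgeR FDR = 0.0865). Trim30d and Trim30a had -0.40 (SE 0.18) and -0.17 (SE 0.15), and Trim25, which acts on RIG-I, had 0.17 (SE 0.11). Trim12c overlaps Gm27995 on its strand, and the family lies in a cluster of near copies on chromosome 7. The promoter of Trim12c (chr7:104353363-104353469, minus strand) carries 1 ISRE core, close to the start.
Trim12c: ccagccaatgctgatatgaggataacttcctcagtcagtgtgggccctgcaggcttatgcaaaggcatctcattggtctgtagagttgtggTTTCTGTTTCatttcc

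PARP9, PARP14 and DTX3L act in ADP-ribosylation and ubiquitination after DNA damage and interferon. None of the 3 genes passed the test. Parp9 ran from 2.34 to 4.18 CPM in PBS mice (median 2.90) and from 1.36 to 2.98 CPM in HsTX1[R14A] mice (median 2.68), with a log2 fold change of -0.36 (SE 0.14, edgeR FDR = 0.0552). Dtx3l ran from 3.99 to 6.56 CPM (median 4.77) and from 4.15 to 5.39 CPM (median 4.61), with a log2 fold change of -0.12 (SE 0.09, edgeR FDR = 0.278). The 2 genes overlap on opposite strands. Parp14 was at 2.15 ± 0.711 CPM (SD, n = 12) and 2.07 ± 0.455 CPM (SD, n = 9), with a log2 fold change of -0.03. With the length slope in the model, the estimates were -0.46 for Parp14, -0.34 for Parp9 and -0.20 for Dtx3l. Their unadjusted p in edgeR were 0.0101, 0.0606 and 0.0616.

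Among the other effectors, 5 of 8 fell. Xaf1, which encodes a binding partner of the apoptosis inhibitor XIAP (chromosome 11, 72301629 to 72313733), had the smallest p-value of the members. It ran from 3.95 to 6.77 CPM in PBS mice (median 5.32) and from 2.81 to 4.40 CPM in HsTX1[R14A] mice (median 3.82). All 9 treated mice lay below the PBS median and 5 below the lowest PBS mouse, and the log2 fold change was -0.56 (SE 0.11, edgeR FDR = 0.0151). With the length slope in the model it was -0.44 (SE 0.12, unadjusted p = 0.00155, edgeR FDR = 0.262).

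Nmi and Ifi35 encode proteins that bind each other. Nmi ran from 1.56 to 3.69 CPM in PBS mice (median 2.66) and from 0.889 to 2.58 CPM in HsTX1[R14A] mice (median 1.77), a log2 fold change of -0.66 (SE 0.18, edgeR FDR = 0.0188). Ifi35 ran from 1.74 to 3.34 CPM (median 2.82) and from 1.07 to 2.53 CPM (median 1.99), a log2 fold change of -0.40 (SE 0.14, edgeR FDR = 0.0340). In both genes all 9 treated mice lay below the PBS median. Both transcripts are short (1291 and 1362 bases), and with the length slope in the model the estimates were -0.22 (unadjusted p = 0.144) and -0.23 (unadjusted p = 0.147).

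Cmpk2, a mitochondrial nucleotide kinase, ran from 23.7 to 32.2 CPM in PBS mice (median 27.1) and from 21.6 to 27.3 CPM in HsTX1[R14A] mice (median 24.8). The log2 fold change was -0.17 (SE 0.06, edgeR FDR = 0.0296), and with the length slope in the model it was -0.07 (SE 0.05, unadjusted p = 0.203). Rsad2, its neighbor on chromosome 12, encodes the antiviral enzyme viperin and had an estimate of -0.30 (SE 0.19, edgeR FDR = 0.207). Ifi44 had the lowest estimate of the members, -0.78 (SE 0.30, edgeR FDR = 0.0495), at 0.426 to 1.72 CPM (median 0.676) and 0.0993 to 0.849 CPM (median 0.464). It lies at the threshold and rests on as few as 2 counts in a mouse. Sp100 and Helz2 had -0.19 (SE 0.15) and 0.29 (SE 0.22).

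Per kilobase of the longest transcript, the members covered a wide range in PBS brains. Ifi27 had 17.3 CPM per kilobase, Adar 15.8, Ifitm3 12.4, Ifitm2 11.1 and Ifnar1 8.999. Next came Cmpk2 with 8.37 and Ifit3 with 7.89. At the low end, Ifi44 had 0.209, Helz2 0.255, Parp14 0.289, Gbp4 0.297 and Rsad2 0.304 CPM per kilobase, apart from Gm43302 with 0.0941 and Samd9l with 0.0178. In HsTX1[R14A] brains the order of the first 2 was turned, with Adar at 23.3 and Ifi27 at 13.5 CPM per kilobase. Their transcripts differ in length (5909 and 977 bases). With the length slope in the model, the estimates were 0.14 for Adar and -0.19 for Ifi27, and the part of the slope in this order was not tested.

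The mean log2 CPM of the members in a mouse, centered per gene, ran from -0.13 to 0.53 in PBS mice (median 0.11) and from -0.41 to 0.07 in HsTX1[R14A] mice (median -0.10), so the ranges overlapped. PBS male mouse 83 was the highest of all 21 mice for 18 of the 53 members, among them Ifit1, Irf7, Rsad2 and Iigp1. HsTX1[R14A] male mouse 81 was the lowest for 17 members. The number of members under the PBS median ran from 9 to 43 in PBS mice and from 29 to 46 in HsTX1[R14A] mice.

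**Figure D3:**
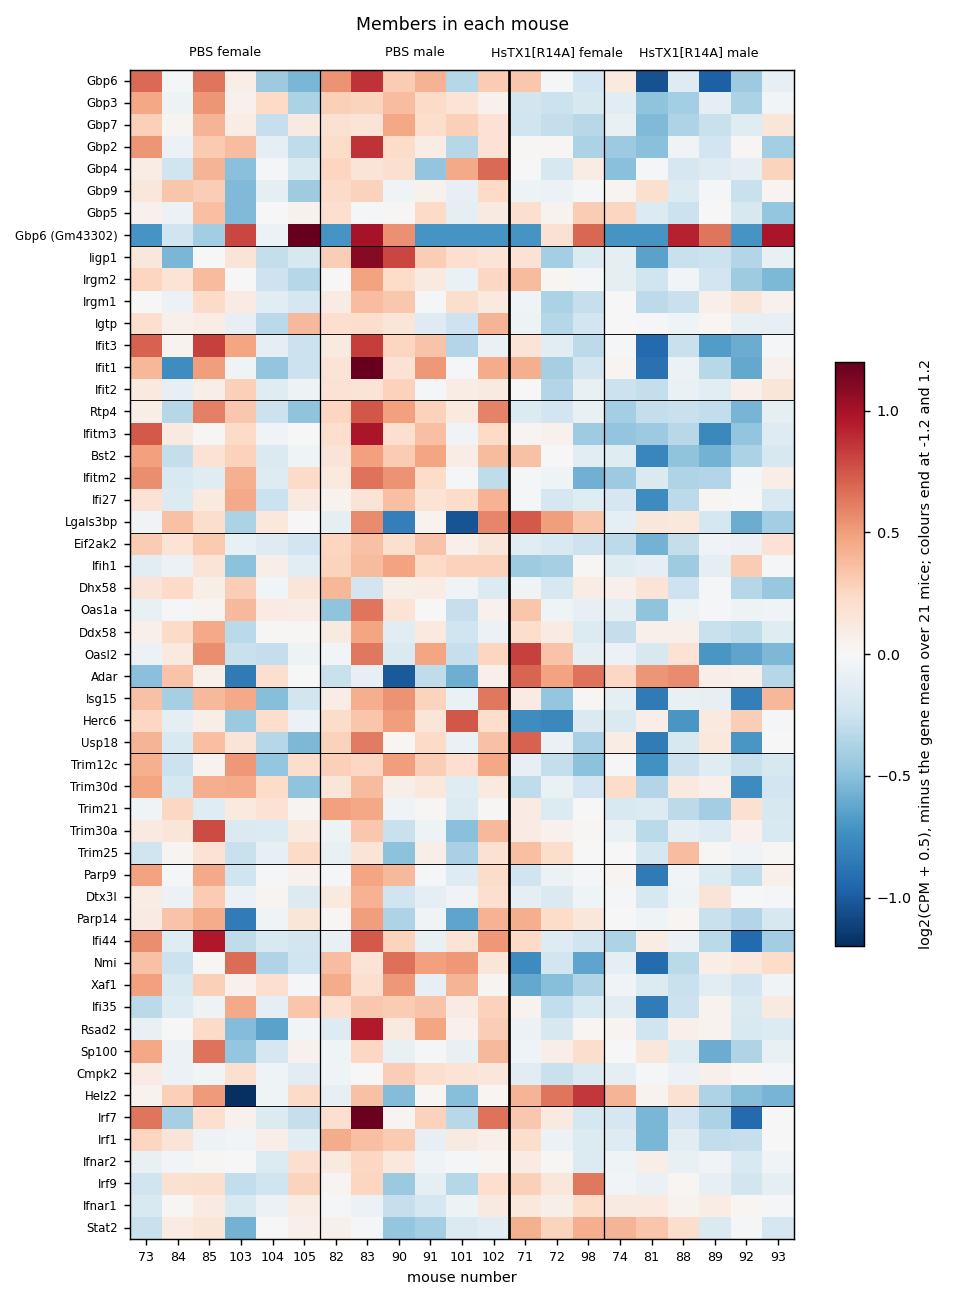
Each member (rows, by role) in each mouse (columns, by group) as log2(CPM + 0.5) minus the mean of the gene over 21 mice. Mouse 83 is red in most rows, mouse 81 blue in many, and Adar, Stat2 and Ifnar1 run opposite to most others.

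The calls were sensitive to single mice in number. With 1 mouse left out at a time, the number of members that fell ran from 12 (without PBS male mouse 90) to 24 (without HsTX1[R14A] female mouse 71), and it was 14 without HsTX1[R14A] female mouse 98 and 14 without HsTX1[R14A] male mouse 88. Over all genes, 2618 fell with all mice, 1030 without mouse 90, 1670 without mouse 71, 1508 without mouse 98 and 1580 without mouse 88. The median log2 fold change of the members ran from -0.35 to -0.27. Of the 22 members that fell, 12 passed the test in each of these 21 fits: Gbp3, Gbp7, Ifit3, Ifitm3, Bst2, Ifi27, Rtp4, Eif2ak2, Herc6, Trim12c, Nmi and Xaf1. Adar and Stat2 also did. The other 10 that fell, and Ifnar1, lost the call without mouse 90. Ifi44 lost it without any of 15 mice, Ifit2 and Irf1 without any of 11, Ifi35 and Ifnar1 without any of 7, Gbp2 and Cmpk2 without any of 6, Irgm1 without any of 5, and Iigp1 and Ifitm2 without any of 4.

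Library names take 2 forms, which the treatments share unequally. The more common form was given to 10 mice on PBS and 5 on HsTX1[R14A], the other to 2 and 4, and what the forms stand for is not given in the sources used here. With the name form in the model, 11 of 53 members fell, against 6.28% of all genes. Within the more common form 43 of 53 members were lower, with a median of -0.26. That fit called 0 members and 0 of all genes, and 17 members were lower with an unadjusted p under 0.05, against 18.2% of all genes. Within the other form 46 were lower, with a median of -0.33. Again 0 members and 0 of all genes were called, and 3 members were lower with an unadjusted p under 0.05, against 1.66% of all genes.

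The estimates were lower in males than in females for many members, and no such difference between the sexes passed the test. In males (6 against 6 mice) the median log2 fold change was -0.42 and 47 members were lower. In females (3 against 6 mice) it was -0.16 and 37 were lower, and 36 were lower in both. When each sex was fitted alone, 0 members and 0 of all genes passed an FDR of 0.05 in edgeR. At an unadjusted p under 0.05, 30 of 52 members were lower in males, against 12.4% of all genes, and 4 of 53 in females, against 11.8% of all genes. The test of the interaction of treatment and sex called 0 members and 0% of all genes (lowest edgeR FDR 0.999961 among the members). At an unadjusted p under 0.05 it gave 7 members, against 1.66% of all genes, and limma/voom and DESeq2 gave 0 calls and 8 members each. With 1 mouse left out the 7 ran from 1 (without HsTX1[R14A] female mouse 71) to 11 (without PBS male mouse 101), and it was 3 without PBS male mouse 83.

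These 7 were Bst2, Iigp1, Oasl2, Irgm2, Irf7, Irf1 and Rtp4, in each of which the estimate was lower in males. Bst2 had the smallest p of the interaction (unadjusted p = 0.00338, edgeR). It was at 3.58 ± 0.846 CPM (SD, n = 6) in PBS females, 4.26 ± 0.538 (SD, n = 6) in PBS males, 3.55 ± 0.716 (SD, n = 3) in HsTX1[R14A] females and 2.37 ± 0.468 CPM (SD, n = 6) in HsTX1[R14A] males. The male log2 fold change was -0.84 (SE 0.16), and the mean was nearly the same in both female groups. Iigp1 also had nearly the same mean in both female groups, at 0.748 ± 0.227 CPM (SD, same mice) under PBS and 0.738 ± 0.253 CPM under HsTX1[R14A]. Males were at 1.42 ± 0.547 CPM under PBS and 0.606 ± 0.147 CPM under HsTX1[R14A], a log2 fold change of -1.19 (SE 0.26). Unlike in Bst2, the group that stood apart was PBS males, with mouse 83 at 2.34 CPM and mouse 90 at 1.83 CPM. Xaf1, Nmi and Herc6 had estimates as low or lower in females (-0.73, -0.73 and -0.57) than in males (-0.45, -0.62 and -0.42).

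**Figure D4:**
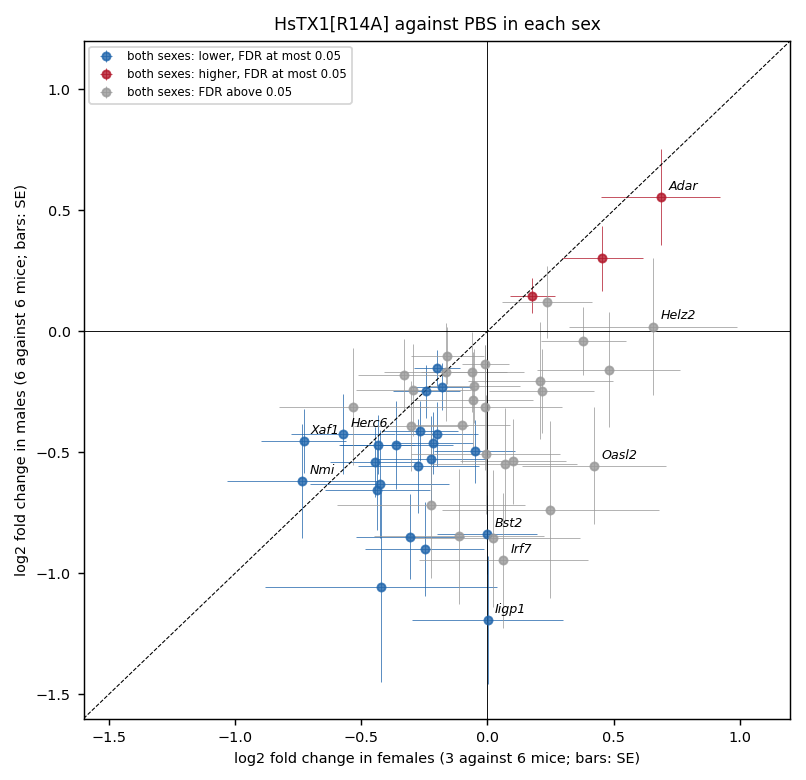
Log2 fold change of the members in females (horizontal axis) and in males (vertical axis) with standard errors as bars, both from 1 model with an interaction; the dashed line marks equal values, and Gm43302 is left out for its error of over 1. Most points lie under the line, and no interaction passed an FDR of 0.05.

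Between males and females, over both treatments, 0 members differed at an FDR of 0.05 in edgeR (lowest FDR 0.440), against 0.0552% of all genes, and limma/voom and DESeq2 also called 0. At an unadjusted p under 0.05, 7 members differed, against 10.8% of all genes, and 9 members each in limma/voom and DESeq2. With 1 mouse left out the 7 ran from 4 (without HsTX1[R14A] female mouse 72) to 11 (without PBS female mouse 103). None of the 7 passed the test. Their estimates were above 0 (higher in males) for Herc6, Ifih1, Nmi, Cmpk2, Irgm1 and Xaf1 and below 0 for Adar. Herc6 was at 13.9 ± 2.40 CPM in PBS females and 18.1 ± 3.13 CPM in PBS males (SD, n = 6 each), and under the peptide at 9.36 ± 2.45 CPM (SD, n = 3) in females and 13.5 ± 3.02 CPM (SD, n = 6) in males.

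The median of the members was below that of all genes in each of 3 length classes. Among the shortest genes (up to 2510 bases, with classes of equal size) 9 of 15 members fell, with a median log2 fold change of -0.40, against 27.1% and -0.21 for all genes. In the middle class 9 of 23 fell, with a median of -0.27, against 15.2% and -0.0045 for all genes. In the longest class (over 4179 bases) 4 of 15 fell, with a median of -0.12, while 6.07% of all genes fell, 30.5% rose and their median was 0.18. The 4 were Gbp7, Ifih1, Eif2ak2 and Herc6, and 2 of the 15 (13.3%), Adar and Stat2, rose. Removing each library's trend on length and GC content left 8 of 53 members that fell, against 6.38% of all genes, and 47 with an estimate below 0, against 51.7% of all genes.

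**Figure D5:**
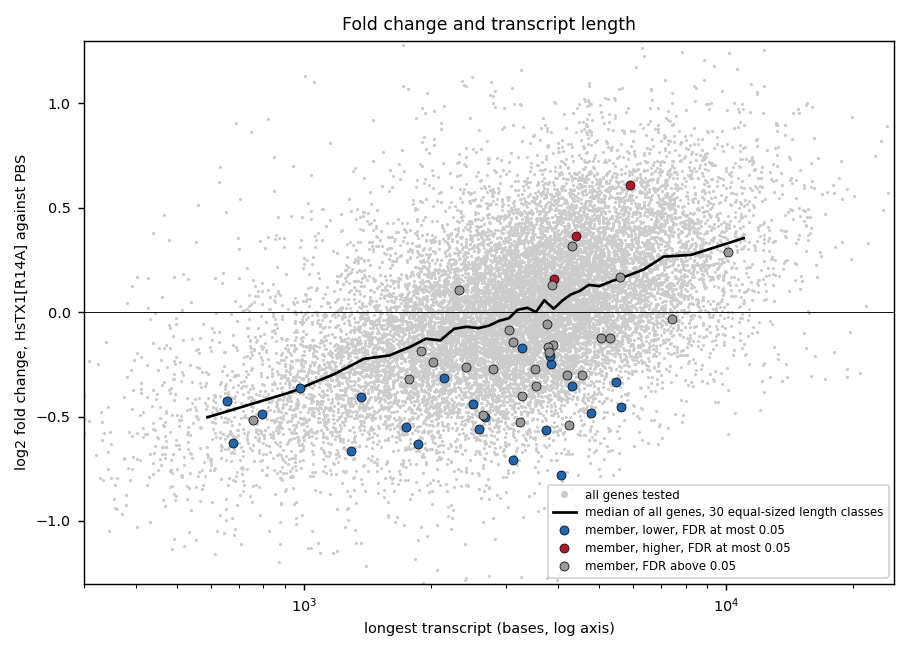
Log2 fold change in HsTX1[R14A] against PBS mice over the length of the longest transcript (log axis) for all genes tested (gray, with the median of equal-sized length classes as a line; genes beyond the axes are not drawn) and for the members (large points, by call). The line rises from left to right, and most members lie under it at every length.

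Whole-brain RNA cannot tell fewer cells of a type from less RNA per cell. Over all genes, 16.1% fell and 15.5% rose. With the length slope in the model, 0 of all genes passed the test, the cell type markers below included. Of the 8 microglia markers, P2ry12, Aif1 and Trem2 fell and 0 rose. Their summed level ran from 377 to 561 CPM in PBS mice (median 434) and from 319 to 483 CPM in HsTX1[R14A] mice (median 361). Of the 8 endothelial markers, Flt1 and Kdr rose and 0 fell, with summed levels of 105 to 158 CPM (median 123) and 110 to 176 CPM (median 144). Of the 6 astrocyte markers 3 fell, with summed levels of 1531 to 2339 CPM (median 2050) and 1438 to 1989 CPM (median 1871), and of the 6 oligodendrocyte markers 3 fell. Of the 6 neuron markers 1 rose, and their summed level ran from 3578 to 6408 CPM in PBS mice and from 4510 to 7335 CPM in HsTX1[R14A] mice. Of the 6 choroid plexus markers 0 passed the test, and of the 5 ependymal markers 2 fell. Of 13 markers of blood and infiltrating leukocytes 5 were analysed, 0 of which passed the test, with a median log2 fold change of 0.30. The pan-leukocyte gene Ptprc was at 4.33 ± 1.99 CPM (SD, n = 12) and 3.33 ± 0.680 CPM (SD, n = 9), a log2 fold change of -0.39 (SE 0.19, edgeR FDR = 0.114). The other markers analysed, Hba-a1, Hbb-bs, Alas2 and Ly6c2, had estimates above 0. The part of these cell types in the members' change was not tested. The share of counts from mitochondrially encoded genes ran from 9.33% to 20.2% in PBS mice and from 7.13% to 13.5% in HsTX1[R14A] mice, and its part was not tested either.

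The list of other pathway genes held 74 genes from receptors and kinases to further effectors, of which 59 were found, on 60 rows, and 15 were not analysed here. Of these rows 11 fell (18.3%, against 16.1% of all genes) and 4 rose (6.67%, against 15.5%), with a median log2 fold change of -0.12 (-0.01 over all genes tested). Slfn8, of the schlafen family of interferon-induced proteins, was at 1.74 ± 0.319 CPM (SD, n = 12) and 1.18 ± 0.189 CPM (SD, n = 9) and had a log2 fold change of -0.57 (SE 0.12, edgeR FDR = 0.0151). Ptpn6, the phosphatase SHP-1 that dampens cytokine receptors, had -0.34 (SE 0.09, edgeR FDR = 0.0183). Jak1, the kinase on the receptor, rose from 110 ± 18.6 CPM (SD, n = 12) to 134 ± 15.6 CPM (SD, n = 9), with a log2 fold change of 0.30 (SE 0.09, edgeR FDR = 0.0241), and Stat3 rose by 0.41 on the log2 scale (SE 0.13, edgeR FDR = 0.0285).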

How the data were processed

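The authors sequenced whole-brain RNA of 21 SAMP8 mice, aligned the reads to GRCm38 with STAR and quantified genes with Salmon, per the labels and the study's methods. The authors deposited estimated counts for 16318 genes, not normalized. Of these values 90.5% were whole to within 0.01, and the table was rounded before testing. The labels and the methods name different library kits. Per-sample columns of other libraries and of the authors' normalized values (53, of which 37 hold CPM and 16 counts) and the authors' fold changes and p-values were not used.

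Library totals ran from 14917174 to 47613792 counts. The 48 pairs of mice within a group differed by a mean chi-square per gene of at least 7.25, more than sampling noise gives. The low-count filter filterByExpr left 16303 genes. After TMM scaling, edgeR 4.0.16 in R 4.3.3 tested treatment next to sex by quasi-likelihood (glmQLFit, glmQLFTest), at an FDR threshold of 0.05. CPM values are TMM-scaled, and the SE of a log2 fold change is its size over the square root of F. The procedure was tested on simulated data. Transcript lengths are of the longest transcript in GENCODE M21, and promoter windows are RefSeq's, in GRCm38.p6, the build of the files.

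The members, roles, pathway list and markers were chosen with earlier results of these data known. Values are given in full for members that passed the test and for the 2 members with the smallest p of each role, 29 in all, and of the pathway list for the 2 smallest p in each direction. Members outside this rule are named with their fold change where they were tested, some of them also with mean CPM. Alternatives were RLE scaling, limma/voom (limma 3.58.1), DESeq2 1.42.0, other filters, no sex term, the library name form or length slope as a covariate, each name form or sex alone, sample quality weights, 1 surrogate variable (sva 3.50.0), removal of length and GC trends, and each mouse left out.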

Additional observations from a re-analysis of the deposited data

Results flagged for a closer look

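Among 87 sets of a fully described member and a group of 6 mice, 4 had 1 mouse far from the other 5, judged by its gap to the nearest mouse over the range of the group (critical value 0.625). Chance gives about 1 in 20 such sets. Ifitm3 was highest in PBS female mouse 73, at 11.7 CPM with the next mouse at 8.09 CPM (ratio 0.708), and in PBS male mouse 83, at 13.9 CPM with the next at 8.92 CPM (ratio 0.682). Gbp2 was highest in the same male mouse 83, at 8.32 CPM with the next at 5.12 CPM (ratio 0.639). Trim21 was highest in HsTX1[R14A] male mouse 92, at 2.78 CPM with the next at 2.07 CPM (ratio 0.628).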

How the results depend on the processing

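The count of members that fell (22) stayed between 15 and 24 with RLE scaling, limma/voom, DESeq2, both other filters, quality weights and no sex term. It moved to 11 with the library name form in the model, to 10 with 1 surrogate variable, to 8 after removal of the length and GC trends, and to 0 with the length slope, within either name form and within either sex. Over all genes, 2618 fell in the main fit, 1024 with the name form, 783 with the surrogate variable, 1040 after trend removal and 0 in the others. The count of members that rose (3) moved to 1 after trend removal and to 0 with the length slope, within either name form and within either sex. With 1 mouse left out it ran from 2 to 3, and the count of members that fell from 12 to 24. Smaller groups bear on the fits of single forms and sexes, and otherwise the cause was not tested. Counts by sex and by interaction were 0 in each fit run. Of 432 values of single members in the other settings, 248 kept side and direction, 178 lost the call, 5 gained it and 1 changed sign, which was Iigp1 in females alone (log2 fold change 0.00013). Of 609 with 1 mouse left out, 526 kept side and direction, 77 lost the call and 6 gained it. No paired analysis was possible because mouse numbers are not shared between groups. Depth limits Samd9l, Ifi44, Usp18, Gm43302, Iigp1, Oas1a, Isg15 and Rsad2, which had under 10 counts in at least 1 mouse.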
